A study of Mus musculus with 6 samples.

Results

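Transcripts of basement membrane proteins and of the integrins that bind them were followed in cultured mouse cells reprogrammed from fibroblasts. These were Pkd1 -/- or Pkd1 fl/fl. The set held 39 genes, listed by symbol and found by their Ensembl identifiers among the 49671 in each count file: 6 collagen IV chains, 9 laminin chains, 9 other basement membrane genes, 7 integrin alpha chains, 6 integrin beta chains and 2 other matrix receptors. RNA came from iRECs, induced renal epithelial cells, which are fibroblasts reprogrammed with kidney transcription factors. The strain was B6.129S4-Pkd1tm2Ggg/J, so all cultures started from floxed Pkd1 and had been transduced with a recombinase. The Cre group was Pkd1 -/- after Cre transduction, and the Flp group was Pkd1 fl/fl, the wild type counterpart, after Flp transduction. Clones 4, 7 and 21 each gave 1 Cre and 1 Flp culture, which makes 6 libraries and 3 per group. Each clone is a line grown from reprogrammed cells, and nothing in the labels ties the clones to separate animals. P-values then speak only to these 3 clone pairs, whose spread may be technical. The edgeR test also draws each gene's variance toward that of other genes.

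Basement membranes are thin sheets of matrix under epithelia. Laminins, trimers of an alpha, a beta and a gamma chain, polymerise at the cell surface, collagen IV trimers form a second network, and nidogens and heparan sulphate proteoglycans join them. Integrins, heterodimers of an alpha and a beta chain, bind these networks and connect them to the cytoskeleton, with dystroglycan and the collagen receptor Ddr1 beside them. In the kidney, collagen IV is built from the alpha 1 and alpha 2 chains in most basement membranes and from the alpha 3, alpha 4 and alpha 5 chains in the mature glomerulus, where their loss causes Alport syndrome. Thickened tubular basement membranes are a known feature of polycystic kidneys.

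The 6 collagen IV genes lie in 3 head-to-head pairs, and the promoter windows of 5 of them are shown because the text below turns on which pair was transcribed and on whether partners differed between groups in the same clones. Each window holds 300 bases of RefSeq sequence on GRCm38.p6, 250 before and 50 after the start of the gene, written 5′ to 3′ on the gene's own strand. Capitals mark CCAAT and GGGCGG, the CCAAT box and the GC box, searched on both strands, so that ATTGG and CCGCCC are the same motifs read on the other strand.
Col4a1 (chr8:11312777-11313076, minus strand): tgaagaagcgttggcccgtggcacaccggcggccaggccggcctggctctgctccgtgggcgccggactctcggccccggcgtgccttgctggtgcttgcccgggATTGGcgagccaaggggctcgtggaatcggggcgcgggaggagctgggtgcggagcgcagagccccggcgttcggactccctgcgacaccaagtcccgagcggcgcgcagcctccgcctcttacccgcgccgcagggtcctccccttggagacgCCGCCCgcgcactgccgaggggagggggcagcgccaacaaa
Col4a2 (chr8:11312555-11312854, plus strand): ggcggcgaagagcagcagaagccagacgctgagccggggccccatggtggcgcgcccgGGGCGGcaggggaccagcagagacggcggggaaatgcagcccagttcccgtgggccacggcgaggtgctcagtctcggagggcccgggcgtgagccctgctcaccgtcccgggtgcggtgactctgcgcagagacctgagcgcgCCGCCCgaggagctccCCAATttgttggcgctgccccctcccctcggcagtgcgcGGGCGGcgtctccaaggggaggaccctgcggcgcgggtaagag
Col4a4 (chr1:82586800-82587099, minus strand): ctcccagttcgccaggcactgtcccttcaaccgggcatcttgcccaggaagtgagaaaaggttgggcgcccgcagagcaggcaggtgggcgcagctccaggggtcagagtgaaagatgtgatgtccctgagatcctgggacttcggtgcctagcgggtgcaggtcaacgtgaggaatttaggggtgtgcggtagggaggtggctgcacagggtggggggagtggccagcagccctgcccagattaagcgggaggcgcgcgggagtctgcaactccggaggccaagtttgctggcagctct
Col4a5 (chrX:141475169-141475468, plus strand): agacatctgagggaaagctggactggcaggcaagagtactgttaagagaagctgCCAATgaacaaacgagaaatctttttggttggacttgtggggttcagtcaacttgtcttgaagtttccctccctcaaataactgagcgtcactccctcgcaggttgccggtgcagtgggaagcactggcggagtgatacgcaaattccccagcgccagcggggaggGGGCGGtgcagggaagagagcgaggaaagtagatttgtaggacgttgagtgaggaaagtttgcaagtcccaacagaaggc
Col4a6 (chrX:141474027-141474326, minus strand): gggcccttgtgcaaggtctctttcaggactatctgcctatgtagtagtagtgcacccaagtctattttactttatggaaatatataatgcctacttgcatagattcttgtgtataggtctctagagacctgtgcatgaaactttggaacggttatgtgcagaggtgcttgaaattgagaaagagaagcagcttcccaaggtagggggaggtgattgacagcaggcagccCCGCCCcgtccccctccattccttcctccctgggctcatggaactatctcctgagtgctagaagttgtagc
The annotated starts of Col4a1 and Col4a2 were 21 bases apart and their windows shared 78 bases, with 1 GGGCGG match in Col4a1's window and 3 in Col4a2's. The match in Col4a1's window lies in the shared bases and is the same site as 1 of the 3. Col4a3 starts 72 bases from Col4a4, inside the Col4a4 window, which held neither motif. Col4a6 and Col4a5 start 1309 bases apart in GENCODE. Of the 39 genes, 29 matched at least 1 window, 40 windows in all. GGGCGG was in 62.5% of these 40 windows and in 35.7% of all 32851 windows of the table, and CCAAT in 32.5% and 37.4%. TGACTCA was in 2.5% and 5.20%, and CACGTG in 0 of the 40 and 7.15% of all. These matches describe letters in a window and not bound sites.

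Library totals ran from 25196120 to 46918341 counts, and 3 counts, the limit taken for a count of 0, came to 0.0639 to 0.119 CPM by library, which covers counting error only. CPM scales counts by the TMM-adjusted library size, and CPM per kb divides it by the merged exon length, so that genes can be compared. Pkd1 itself, the targeted gene, was at 145, 105 and 118 CPM in Cre clones 4, 7 and 21, against 199, 229 and 166 CPM in Flp clones 4, 7 and 21, lower in Cre in every clone (log2 fold change -0.69, SE 0.16, edgeR adjusted p = 0.607). Its Cre libraries all lay below its Flp libraries, as in 3.95% of all genes tested, yet the edgeR fit did not call it. All 10 renal epithelial markers listed were tested, some of them factors used to reprogram such cells, and they summed to 5620.5 to 7059 CPM in Cre and 5725 to 7087 CPM in Flp. Of 6 endothelial markers 3 had 0 reads in all libraries, and the list summed to 0.240 to 0.875 CPM in Cre and 0.242 to 1.84 CPM in Flp. Podocyte markers summed to 96.4 to 134 CPM in Cre and 52.1 to 161 CPM in Flp, led by Synpo. Basal keratinocyte markers summed to 78.4 to 103 CPM in Cre and 89.8 to 104 CPM in Flp, led by Trp63. Muscle markers summed to 12.2 to 15.7 CPM in Cre and 8.14 to 13.0 CPM in Flp, and proximal tubule markers to 4241 to 5118 CPM in Cre and 4334 to 5817 CPM in Flp. The fibroblast list summed to 158 to 307 CPM in Cre and 238 to 338 CPM in Flp, nearly all of it Vim, and 1 of its 10 genes was at 0. The 6 haematopoietic markers summed to 193 to 299.8 CPM in Cre and 118 to 204 CPM in Flp, nearly all of it Csf1r, with Adgre1 at 0 and Ptprc at most 0.0632 CPM. Csf1r was at 186, 295 and 249.96 CPM in Cre clones 4, 7 and 21, against 153, 112 and 197 CPM in Flp clones 4, 7 and 21, and its part in the results was not tested. Over all genes, Flp clone 7 lay nearer to Cre clone 4 than to Cre clone 7, at a chi-square per degree of freedom of 40.3 and 72.1. Flp clone 21 likewise lay nearer to Cre clone 4 than to Cre clone 21, at 41.8 and 62.8, and Cre clone 7 lay nearest to Cre clone 21, at 42.2. By this measure the Cre and Flp libraries of a clone were thus each other's nearest in clone 4 alone, at 35.0, and results are also given with single clones left out. The measure uses raw counts and grows with library depth, so pairs of unlike depth are not on 1 scale. Correlations of deviations from group means were 0.20, 0.11 and 0.30 within clones 4, 7 and 21, against -0.27 to 0.02 between clones. In bulk RNA, fewer cells of a type and less RNA per cell cannot be told apart.

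Basement membrane and integrin transcripts were abundant in both groups, and the Cre minus Flp differences were mostly small. Integrin beta 5 and laminin alpha 3 were among 6 genes that were lower in Cre in every clone, and collagen IV alpha 3 and alpha 4 differed widely inside single clones. Of the 39 genes, 34 passed the filter on low counts and were tested, and 0 of them passed an adjusted p of 0.05 in edgeR's quasi-likelihood test with the clone as a block, as did 0.0% of all 15355 genes tested. Their adjusted p ran from 0.607 to 0.997. At an unadjusted p under 0.05 there were 2, Itgb5 and Lama3, beside 6.82% of all genes. Both were lower in Cre, where 3.28% of all genes were lower and 3.54% higher at that level. DESeq2 with the clone block called 1 of the 34, Itgb5 (1.28% of all genes tested). DESeq2 without the block called 0 of them (0.0913% of all), and limma-voom 0. The median log2 fold change of the 34 was 0.06, beside 0.00 for all genes tested, and the median absolute value was 0.18, beside 0.16.

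The direction was the same in every clone for 11 of the 34 genes, beside 27.7% of all genes tested. In 5 genes Cre was the higher library in every clone (Lamb3, Nid2, Fras1, Itgb4 and Itgb8), where 14.6% of all genes tested did so. In 6 genes Cre was the lower one in every clone (Col4a1, Lama3, Col18a1, Itgb1, Itgb3 and Itgb5), beside 13.1% of all genes. Both shares are near those of all genes. Lama3 was the 1 gene of the 34 whose Cre libraries all lay below all Flp libraries, a pattern seen in 3.95% of all genes, and 0 genes showed the opposite pattern, beside 4.19% of all. The plot of clone ratios shows that 17 of the 34 genes had a log2 ratio over 0.5 in size in at least 1 clone, and 5 had one over 1. These last counts have no share of all genes beside them, so they describe this set only.

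**Figure D1:**
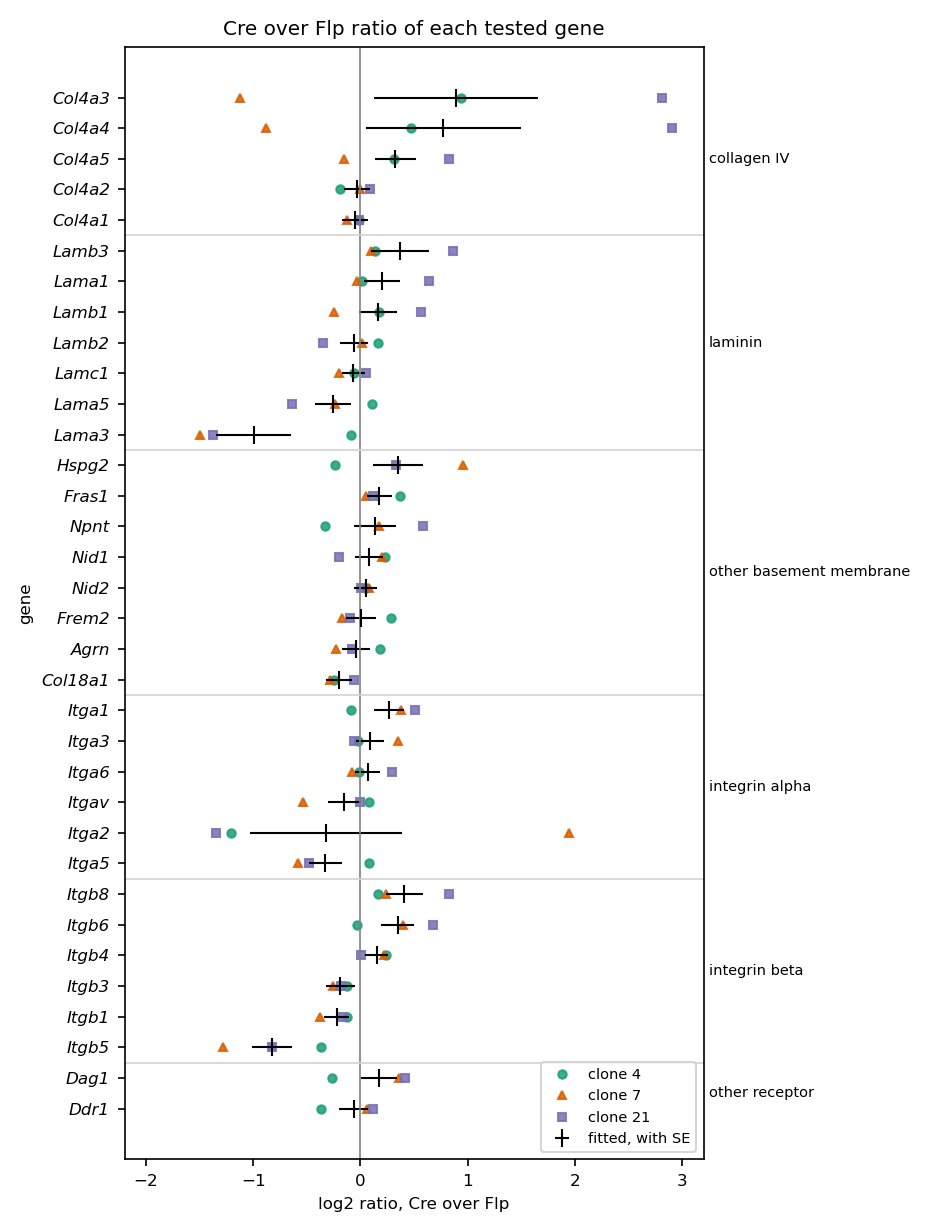
Log2 ratio of Cre over Flp in each clone (circles, triangles and squares for clones 4, 7 and 21) and fitted log2 fold change with its standard error (black) for the 34 tested genes, grouped by role. Itgb5 and Lama3 lie left of 0 in every clone, while Col4a3 and Col4a4 reach 2.81 and 2.91 in clone 21 and lie below 0 in clone 7.

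Differences of at least 2-fold inside a clone were found in 5 of the 34 genes. Shares of all genes tested were counted only by clone and direction and stand in brackets. In clone 4 Itga2 was lower in Cre (2.53% of all genes tested were) and 0 genes were higher (6.28%). In clone 7 Itga2 was higher (4.03%), and Col4a3, Lama3 and Itgb5 were lower (7.14%). In clone 21 Col4a3 and Col4a4 were higher (5.44%), and Lama3 and Itga2 were lower (4.11%). Lama3 was at least 2-fold lower in both clones 7 and 21, and Itga2 was so in clones 4 and 21 but at least 2-fold higher in clone 7.

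The levels spanned more than the differences between groups. Per kb of exon, nephronectin (Npnt) and Col4a1 were the most abundant of the set and ranked 12 and 13 among 49412 gene IDs with a length, at means of 533 and 489 CPM per kb. Next came Itgb1 at 308, Col18a1 at 260.5, Col4a2 at 243 and Agrn at 211 CPM per kb. At the other end 5 genes were too low to test: Frem1 with 0 reads, Lama4 with 2, Itga8 with 4, Col4a6 with 11 and Lama2 with 21 reads over the 6 libraries. All 39 genes together took 2.44, 2.45 and 2.22% of the CPM total in Cre clones 4, 7 and 21, against 2.42, 2.55 and 2.09% in Flp clones 4, 7 and 21.

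**Figure D2:**
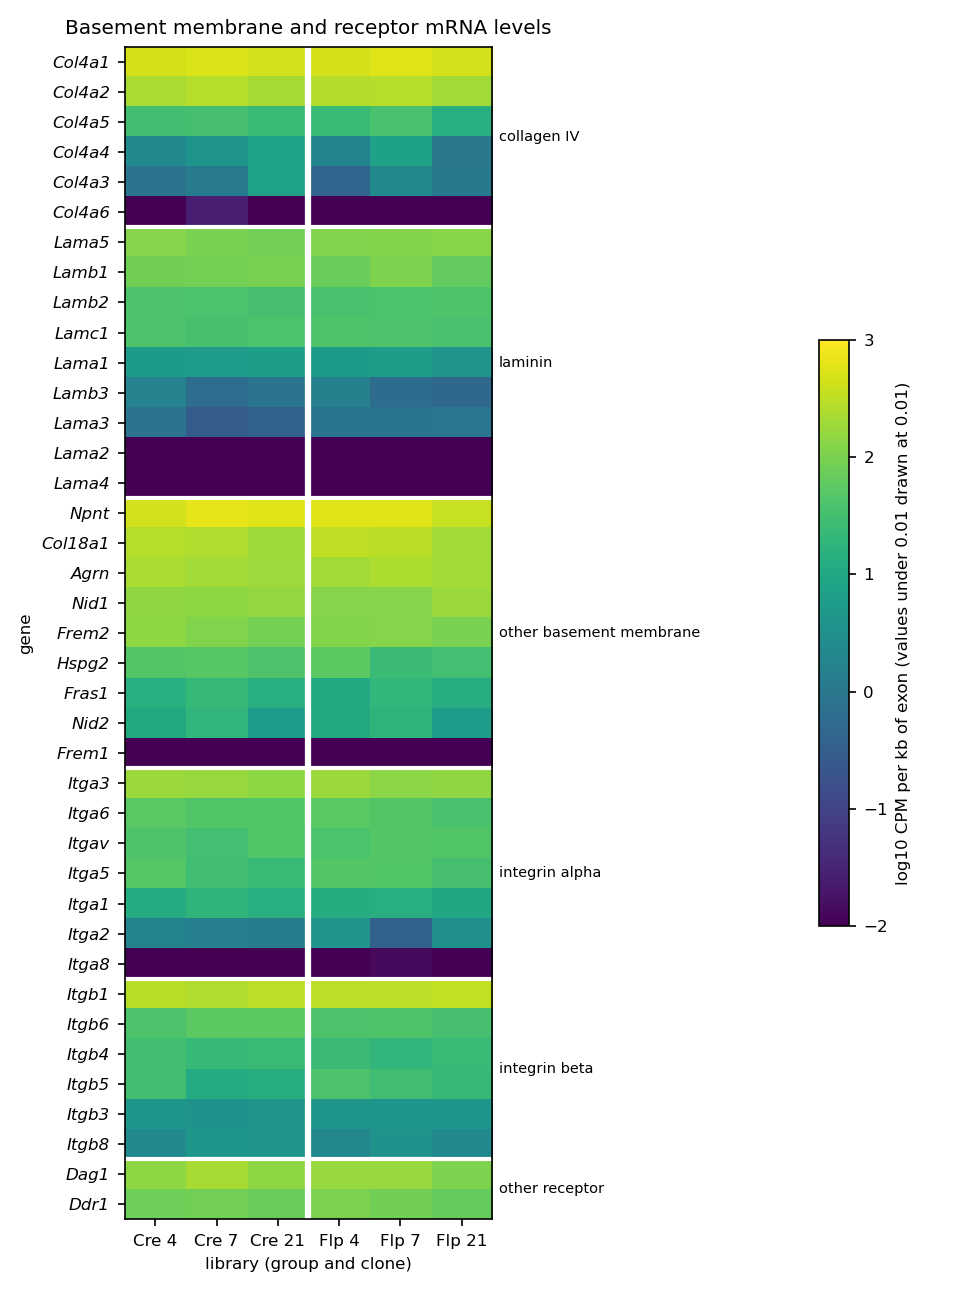
Level of each of the 39 genes in each library as log10 CPM per kb of exon, Cre libraries on the left and Flp libraries on the right, grouped by role and ordered by mean level. Each row keeps nearly one colour across the 6 libraries except Col4a3, Col4a4 and Itga2, and Frem1, Lama4, Itga8, Col4a6 and Lama2 are dark throughout.

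Among the collagen IV chains the ubiquitous pair dominated. Col4a1 (ENSMUSG00000031502, chromosome 8, 11198423 to 11312826, minus strand, GRCm38), the alpha 1 chain, was at 3605, 3814 and 3336 CPM in Cre clones 4, 7 and 21, against 3633, 4164 and 3363 CPM in Flp clones 4, 7 and 21. Col4a2 (ENSMUSG00000031503, chromosome 8, 11312805 to 11449287, plus strand), the alpha 2 chain of the same trimer, was at 1541, 1807 and 1421 CPM in Cre clones 4, 7 and 21, against 1757, 1807 and 1336 CPM in Flp clones 4, 7 and 21. The groups overlapped for both genes, with log2 fold changes of -0.05 (SE 0.12) and -0.03 (SE 0.12). Per kb, Col4a1 was at 1.83 to 2.23 times the level of its head-to-head partner over the 6 libraries. The pair made up 95.5, 95.4 and 94.4% of collagen IV per kb in Cre clones 4, 7 and 21, against 96.6, 94.7 and 97.7% in Flp clones 4, 7 and 21. That share differed by -1.22 percentage points, Cre minus Flp, with p = 0.5 in an exact two-sided permutation test that swaps Cre and Flp within clones and cannot give less than 0.25 with 3 clones.

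The chains of the mature glomerular network varied most, and within clones. Col4a3 (ENSMUSG00000079465, chromosome 1, 82586921 to 82722059, plus strand), the alpha 3 chain, was at 8.33, 10.8 and 74.1 CPM in Cre clones 4, 7 and 21, against 4.32, 23.6 and 10.5 CPM in Flp clones 4, 7 and 21. Cre clone 21 stood far above the other 5 libraries, and Cre was the higher in clones 4 and 21 and the lower in clone 7. Col4a4 (ENSMUSG00000067158, chromosome 1, 82448423 to 82586849, minus strand), the alpha 4 chain, was at 26.8, 41.0 and 81.5 CPM in Cre clones 4, 7 and 21, against 19.2, 75.6 and 10.8 CPM in Flp clones 4, 7 and 21, with Cre clone 21 and Flp clone 7 the high libraries. The log2 ratios were 0.94, -1.12 and 2.81 for Col4a3 and 0.48, -0.88 and 2.91 for Col4a4 in clones 4, 7 and 21, the same signs in every clone. The fitted log2 fold changes were 0.89 (SE 0.77, edgeR adjusted p = 0.912) and 0.77 (SE 0.72, edgeR adjusted p = 0.925). Without clone 21 they were -0.11 and -0.21, and without clone 7 they were 1.93 and 1.69. With library depth as a covariate, chosen after seeing the data, they were -0.019 and 0.041. By total counts, Cre was the larger library in clones 4 and 21 and the smaller in clone 7. Whether depth has a part in these ratios was not tested. Genes within 10 Mb of Col4a3, 89 of them at a mean of at least 5 CPM, had median log2 ratios of -0.03, -0.04 and -0.07 in clones 4, 7 and 21, near 0 in each.

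The ratio of alpha 3 to alpha 4, per kb, set clone 21 apart. It was 0.331, 0.281 and 0.969 in Cre clones 4, 7 and 21, against 0.239, 0.333 and 1.04 in Flp clones 4, 7 and 21, highest in both libraries of clone 21, while clones 4 and 7 overlapped. Col4a5 (ENSMUSG00000031274, chromosome X, 141475385 to 141689234, plus strand), the alpha 5 chain whose loss causes X-linked Alport syndrome, was at 202, 222 and 162 CPM in Cre clones 4, 7 and 21, against 162, 247 and 91.5 CPM in Flp clones 4, 7 and 21. Flp clone 21 was its lowest library and the groups overlapped, with clone ratios of 0.31, -0.15 and 0.82 on the log2 scale and a fitted log2 fold change of 0.33 (SE 0.19). Its head-to-head partner Col4a6, the alpha 6 chain of Bowman's capsule and of tubule basement membranes, had 11 reads in all, of which 6 were in 1 library, while Col4a5 had 39107. Col4a4 was named here after its values were seen.

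The laminin chains were led by alpha 5, beta 1, beta 2 and gamma 1, which form the laminins of mature kidney basement membranes. Lama5 (ENSMUSG00000015647, chromosome 2, 180176373 to 180225859, minus strand), the alpha 5 chain, was at 1383, 1119.6 and 963 CPM in Cre clones 4, 7 and 21, against 1281, 1318 and 1496 CPM in Flp clones 4, 7 and 21. It was lower in Cre clone 21 than in all other libraries and highest in Flp clone 21, with clones 4 and 7 in between. The log2 fold change was -0.25 (SE 0.17), with clone ratios of 0.11, -0.23 and -0.64. The 59 genes within 10 Mb of Lama5 had median log2 ratios of -0.02, -0.04 and -0.59 in clones 4, 7 and 21, and against the median of the 6 libraries they stood at -0.05 for Cre and 0.53 for Flp of clone 21. What part that stretch has in the Lama5 value was not tested.

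Lama5 held 92.9 to 96.4% of the alpha chains per kb, and Lama1, the alpha 1 chain of embryonic laminin, nearly all of the rest at 51.9 to 59.0 CPM in Cre and 37.9 to 58.1 CPM in Flp. The Lama5 share was 95.2, 94.1 and 92.9% in Cre clones 4, 7 and 21, against 94.8, 94.4 and 96.4% in Flp clones 4, 7 and 21, a difference of -1.16 percentage points (exact permutation p = 0.75), and without clone 21 it was 0.036. Lamb1 (ENSMUSG00000002900, chromosome 12, 31265234 to 31329644, plus strand), the beta 1 chain, was at 818, 889.8 and 929 CPM in Cre clones 4, 7 and 21, against 725, 1058 and 629 CPM in Flp clones 4, 7 and 21, lowest in Flp clone 21. It held 60.1 to 73.6% of the beta chains, and its share was 65.9, 69.4 and 73.6% in Cre clones 4, 7 and 21, against 65.7, 73.2 and 60.1% in Flp clones 4, 7 and 21, a difference of 3.34 percentage points (exact permutation p = 0.75) that was -1.75 without clone 21. Lamb2, the beta 2 chain of the glomerular laminin, had 199 to 249 CPM in Cre and 223 to 254 CPM in Flp. Lamc1, the common gamma 1 chain, was the steadiest of the family at 284 to 331 CPM in Cre and 299.6 to 344 CPM in Flp.

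The alpha 3 and beta 3 chains, parts of the laminin of epidermal hemidesmosomes, were low and differed in direction. Lama3 (ENSMUSG00000024421, chromosome 18, 12333819 to 12583013, plus strand), its alpha 3 chain, was at 8.80, 3.26 and 3.79 CPM in Cre clones 4, 7 and 21, against 9.37, 9.30 and 9.91 CPM in Flp clones 4, 7 and 21. Cre clones 7 and 21 stood well below all the Flp libraries and Cre clone 4 just below them, and the groups did not overlap. Its log2 fold change was -0.996 (SE 0.35, edgeR adjusted p = 0.686), with clone ratios of -0.09, -1.497 and -1.37. Leaving out clone 4, 7 or 21 gave log2 fold changes of -1.45 to -0.73, and its neighbours within 10 Mb had median log2 ratios of 0.03, -0.01 and 0.05. Lamb3, the beta 3 chain, was at 11.0, 4.08 and 5.58 CPM in Cre clones 4, 7 and 21, against 9.98, 3.80 and 3.04 CPM in Flp clones 4, 7 and 21, higher in clone 4 than in the other clones in both groups and slightly higher in Cre in each. Lama2 and Lama4, the alpha 2 chain of muscle and the alpha 4 chain of vessels, had 21 and 2 reads in all, and Lama4 had at most 1 in any library.

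**Figure D3:**
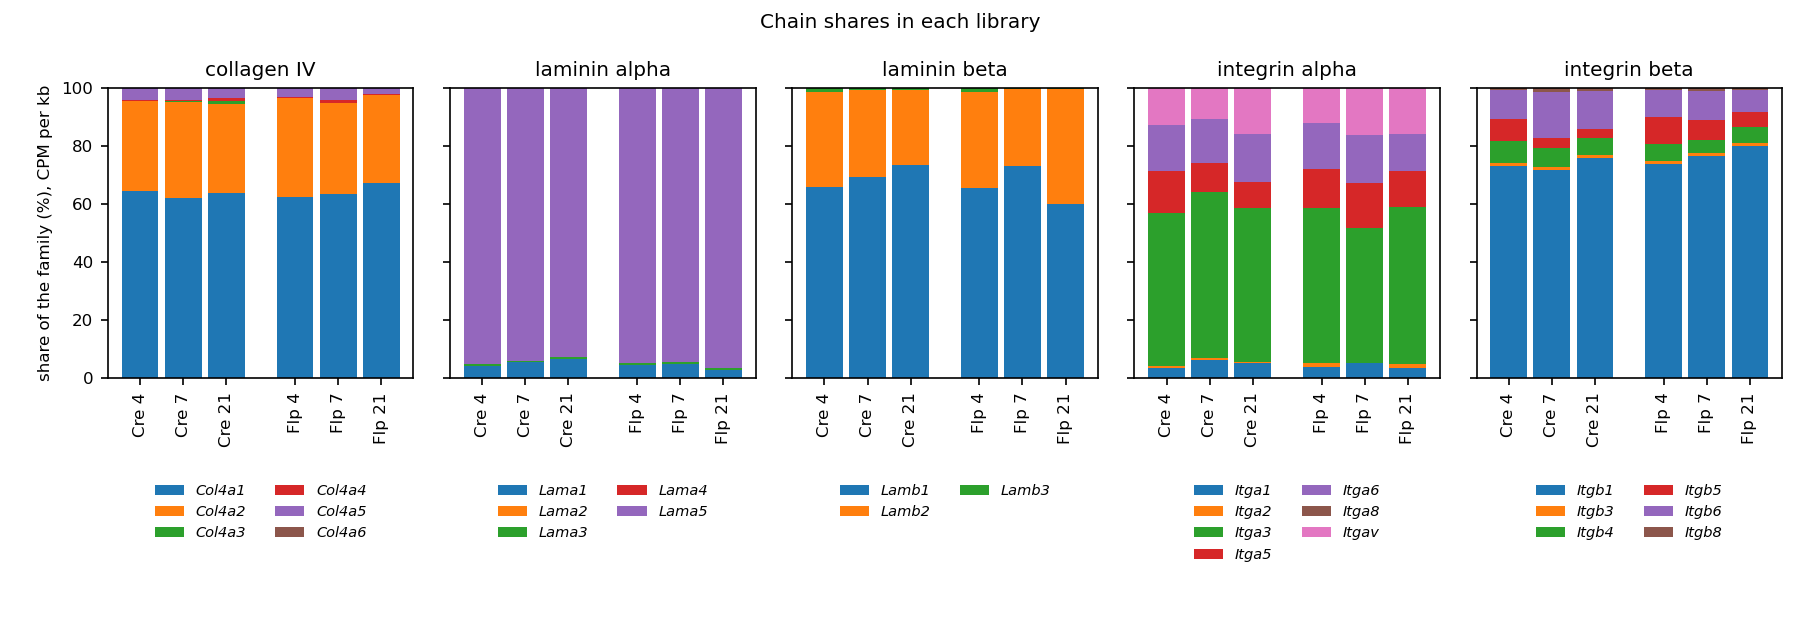
Share of each chain within its family, in percent of the summed CPM per kb, for each library, with Cre bars left of Flp bars. Col4a1 and Col4a2 fill at least 94.4% of collagen IV and Lama5 at least 92.9% of the laminin alpha chains in every library, and the band of Itgb5 is thinner in Cre than in Flp in each clone.

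Among the other basement membrane genes, nephronectin was the most abundant. Npnt (ENSMUSG00000040998, chromosome 3, 132881745 to 132950291, minus strand), which encodes a ligand of integrin alpha 8 beta 1 in the developing kidney, was at 2306, 3261 and 2824 CPM in Cre clones 4, 7 and 21, against 2909, 2893 and 1888 CPM in Flp clones 4, 7 and 21. Cre was the lower in clone 4 and the higher in clones 7 and 21, and the groups overlapped (log2 fold change 0.14, SE 0.20). Its receptor chain Itga8, which in the embryonic kidney marks the mesenchyme, had 0 reads in the 3 Cre libraries and 4 in Flp clone 7, with 0 in the other 2 Flp libraries. Npnt was abundant in every library, whereas its receptor chain was at 0 in 5 of 6.

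Of the heparan sulphate proteoglycans, Col18a1 (ENSMUSG00000001435, chromosome 10, 77052178 to 77166548, minus strand), collagen XVIII, whose end fragment is endostatin, was at 1964, 1748 and 1369 CPM in Cre clones 4, 7 and 21, against 2335, 2131 and 1425 CPM in Flp clones 4, 7 and 21. The Cre library was below the Flp library of each clone, at log2 ratios of -0.25, -0.29 and -0.06 in clones 4, 7 and 21, yet the clone differences were larger, since both libraries of clone 21 lay below the other 4 (log2 fold change -0.20, SE 0.12, edgeR adjusted p = 0.852). Agrin (Agrn) was at 1749 to 2124 CPM in Cre and 1843 to 2252 CPM in Flp and perlecan (Hspg2) at 580.2 to 713 CPM in Cre and 369 to 784 CPM in Flp. Hspg2 had its lowest value in Flp clone 7 and clone ratios of -0.23, 0.95 and 0.33. Per kb, Col18a1 held 46.0 to 56.5% of the 3, Agrn 34.2 to 45.8% and Hspg2 4.50 to 9.86%.

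The nidogens, which bridge laminin and collagen IV, showed a difference between clones. Nid2 (ENSMUSG00000021806, chromosome 14, 19751265 to 19811787, plus strand) was at 57.5, 99.6 and 30.7 CPM in Cre clones 4, 7 and 21, against 55.4, 94.1 and 30.6 CPM in Flp clones 4, 7 and 21. The Cre and Flp libraries of a clone lay within 0.08 of each other on the log2 scale, whereas the mean of clone 7, 96.9 CPM, was 3.16 times that of clone 21, 30.6 CPM. Clone means that differed at least 2-fold were found in 5 of the 34 genes (Col4a3, Col4a4, Lamb3, Nid2 and Itga2), beside 11.8% of all genes tested. Of the exon bases of Nid2, 8.45% overlap Rtraf on the other strand, and the genes within 10 Mb stood at -0.69 in Cre clone 4, -0.83 in Flp clone 4 and 0.32 in Flp clone 7 against the median of the 6 libraries. The part of either in the Nid2 levels was not tested. Nid1 was at 971 to 1088 CPM in Cre and 843 to 1249 CPM in Flp, and held 87.0 to 96.8% of the 2 nidogens per kb. Nid2 and Itga2 were named after their values were seen.

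The Fraser complex, extracellular proteins that hold epithelia to their mesenchyme and whose loss causes Fraser syndrome with absent kidneys, was present in part. Fras1 (ENSMUSG00000034687, chromosome 5, 96373955 to 96784728, plus strand) was at 253, 382 and 247 CPM in Cre clones 4, 7 and 21, against 196, 368 and 228 CPM in Flp clones 4, 7 and 21, slightly higher in Cre in every clone and highest in clone 7 in both groups (log2 fold change 0.18, SE 0.11, edgeR adjusted p = 0.873). Frem2 was at 1202 to 1900.2 CPM in Cre and 1285 to 1672 CPM in Flp and exceeded Fras1 per kb in every library, by 5.19 to 10.6 times. Frem1 had 0 reads in each of the 6 libraries, which allows up to 0.0639 to 0.119 CPM.

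Integrin alpha chains were led per kb by Itga3, with Itga6, Itgav and Itga5 well below it in every library. Itga3 (ENSMUSG00000001507, chromosome 11, 95044474 to 95076801, minus strand), the alpha 3 chain that pairs with beta 1 in a laminin receptor of podocytes and tubules, was at 989, 962 and 823 CPM in Cre clones 4, 7 and 21, against 1003, 756 and 856 CPM in Flp clones 4, 7 and 21. The groups overlapped, and Flp clone 7 was the lowest library (log2 fold change 0.09, SE 0.13). Itga6, the alpha 6 chain that pairs with beta 1 or beta 4, was at 467, 400.2 and 399 CPM in Cre clones 4, 7 and 21, against 473, 422 and 326 CPM in Flp clones 4, 7 and 21, also overlapping, at 0.07 (SE 0.12). Per kb Itga3 made up 46.7 to 57.4% of the 7 alpha chains and Itga6 13.1 to 16.5%, close to Itgav at 10.7 to 16.1% and Itga5 at 8.90 to 15.5%.

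Collagen and fibronectin receptor chains differed in direction. Itga1 (ENSMUSG00000042284, chromosome 13, 114953096 to 115101964, minus strand), the alpha 1 chain of a collagen IV receptor, was at 219, 346 and 256 CPM in Cre clones 4, 7 and 21, against 233, 267 and 179.7 CPM in Flp clones 4, 7 and 21. Cre was the higher in clones 7 and 21, with Cre clone 7 the highest of all (log2 fold change 0.27, SE 0.14, edgeR adjusted p = 0.832). Itga5 (ENSMUSG00000000555, chromosome 15, 103344286 to 103366763, minus strand), the fibronectin receptor chain, was at 234, 145 and 119 CPM in Cre clones 4, 7 and 21, against 222, 216 and 166 CPM in Flp clones 4, 7 and 21. Cre was the lower in clones 7 and 21 and about level in clone 4 (log2 fold change -0.33, SE 0.15, edgeR adjusted p = 0.780). Itga2 (ENSMUSG00000015533, chromosome 13, 114833081 to 114932100, minus strand), the alpha 2 chain of another collagen receptor, was at 12.3, 9.84 and 9.27 CPM in Cre clones 4, 7 and 21, against 28.4, 2.51 and 23.7 CPM in Flp clones 4, 7 and 21. The 3 Cre libraries lay close together, between Flp clone 7 below and Flp clones 4 and 21 above, so the clone ratios of -1.21, 1.95 and -1.35 differ in sign and the fitted value of -0.32 had an SE of 0.71. Itgav, the alpha v chain of receptors for vitronectin and latent TGF-beta, was at 339 to 463 CPM in Cre and 419 to 489.8 CPM in Flp and held 10.7 to 16.1% of the alpha chains, with a difference of -1.44 percentage points (exact permutation p = 1).

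The integrin with the smallest p of the 39 genes was the beta 5 chain. Itgb5 (ENSMUSG00000022817, chromosome 16, 33829665 to 33949338, plus strand), which pairs with alpha v in a vitronectin receptor, was at 109, 42.9 and 45.5 CPM in Cre clones 4, 7 and 21, against 140.1, 105 and 80.8 CPM in Flp clones 4, 7 and 21. Cre was the lower in every clone, and Cre clones 7 and 21 lay below all Flp libraries, while Cre clone 4 lay above Flp clones 7 and 21, so the groups overlapped. The 3 Cre libraries averaged 65.8 ± 37.3 CPM and the 3 Flp libraries 109 ± 29.8 CPM (mean ± SD). The log2 fold change was -0.82 (SE 0.19) and the clone ratios were -0.36, -1.28 and -0.83. Its unadjusted edgeR p was 0.00500 and its adjusted p 0.607. DESeq2 with the clone block put it past the threshold (adjusted p = 0.0142), as the 1 gene of the 34 beside 1.28% of all genes tested, and so did edgeR without the filter on low counts (adjusted p = 0.0106, beside 0.792%). Its log2 fold change ran from -1.06 to -0.59 and its adjusted p from 0.0106 to 0.99998 over the edgeR, limma and DESeq2 alternatives, with -0.59 when clone 7 was left out. The 78 genes within 10 Mb had median log2 ratios of -0.07, 0.01 and 0.00 in clones 4, 7 and 21.

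Of the other partners of alpha v, beta 1 and beta 3 were lower and beta 8 higher in Cre in every clone, and beta 6 was level in clone 4 and higher in Cre in clones 7 and 21. Itgb6 (ENSMUSG00000026971, chromosome 2, 60598292 to 60722643, minus strand), the epithelial beta 6 chain that releases latent TGF-beta, was at 281, 392 and 388 CPM in Cre clones 4, 7 and 21, against 287, 298 and 243 CPM in Flp clones 4, 7 and 21. Cre clones 7 and 21 were the highest libraries, and clone 4 was level between the groups (log2 fold change 0.35, SE 0.16, edgeR adjusted p = 0.759). Per kb, Itgb6 over Itgb5 was 1.29, 4.56 and 4.25 in Cre clones 4, 7 and 21, against 1.02, 1.42 and 1.4996 in Flp clones 4, 7 and 21. Itgb8 (ENSMUSG00000025321, chromosome 12, 119158022 to 119238802, minus strand), the beta 8 chain of another latent TGF-beta receptor, was at 26.6, 48.7 and 45.7 CPM in Cre clones 4, 7 and 21, against 23.7, 41.2 and 25.8 CPM in Flp clones 4, 7 and 21, higher in Cre in each clone with overlapping groups (log2 fold change 0.41, SE 0.17, edgeR adjusted p = 0.734). Itgb3, the beta 3 chain, was at 20.5 to 24.6 CPM in Cre and 24.5 to 26.7 CPM in Flp.

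Set beside each other per kb, beta 3, beta 5, beta 6 and beta 8 summed to 76.7, 75.1 and 75.3 CPM per kb in Cre clones 4, 7 and 21, against 86.4, 79.3 and 63.6 CPM per kb in Flp clones 4, 7 and 21. Of that sum Itgb5 took 39.9, 16.1 and 17.0% in Cre clones 4, 7 and 21, against 45.6, 37.2 and 35.8% in Flp clones 4, 7 and 21. Itgb6 took 51.5, 73.4 and 72.4% in Cre clones 4, 7 and 21, against 46.6, 52.9 and 53.7% in Flp clones 4, 7 and 21. The Itgb5 share was the lower and the Itgb6 share the higher in Cre in every clone, with the smallest gap in clone 4. As a share of 1 sum these values are tied to each other, and the difference between the changes of the 2 genes was not tested. This sum and the ratio of Itgb6 to Itgb5 were not among the 5 chain shares planned for testing. Itgb5 also had the smallest p of the set, which favours a lower share in Cre.

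Itgb1 (ENSMUSG00000025809, chromosome 8, 128685654 to 128733200, plus strand), the beta 1 chain shared by most matrix receptors, was at 1177, 1018 and 1293 CPM in Cre clones 4, 7 and 21, against 1282, 1321 and 1446 CPM in Flp clones 4, 7 and 21. Cre was the lower in every clone, and Cre clone 21 lay just above Flp clone 4, so the groups overlapped (log2 fold change -0.22, SE 0.12, edgeR adjusted p = 0.830). Per kb it held 73.0, 71.9 and 76.0% of the 6 beta chains in Cre clones 4, 7 and 21, against 73.7, 76.6 and 80.0% in Flp clones 4, 7 and 21. The difference was -3.19 percentage points with an exact permutation p of 0.25, the smallest that 3 clones can give. Of 5 chain shares tested in this way, all had a Benjamini-Hochberg adjusted p of at least 0.938. Itgb4, the beta 4 chain of the hemidesmosome receptor, was at 158 to 210.5 CPM in Cre and 136 to 179 CPM in Flp, higher in Cre in every clone by log2 ratios of 0.23, 0.22 and 0.00. Its exons overlap those of an antisense gene over 7.66% of their bases.

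**Figure D4:**
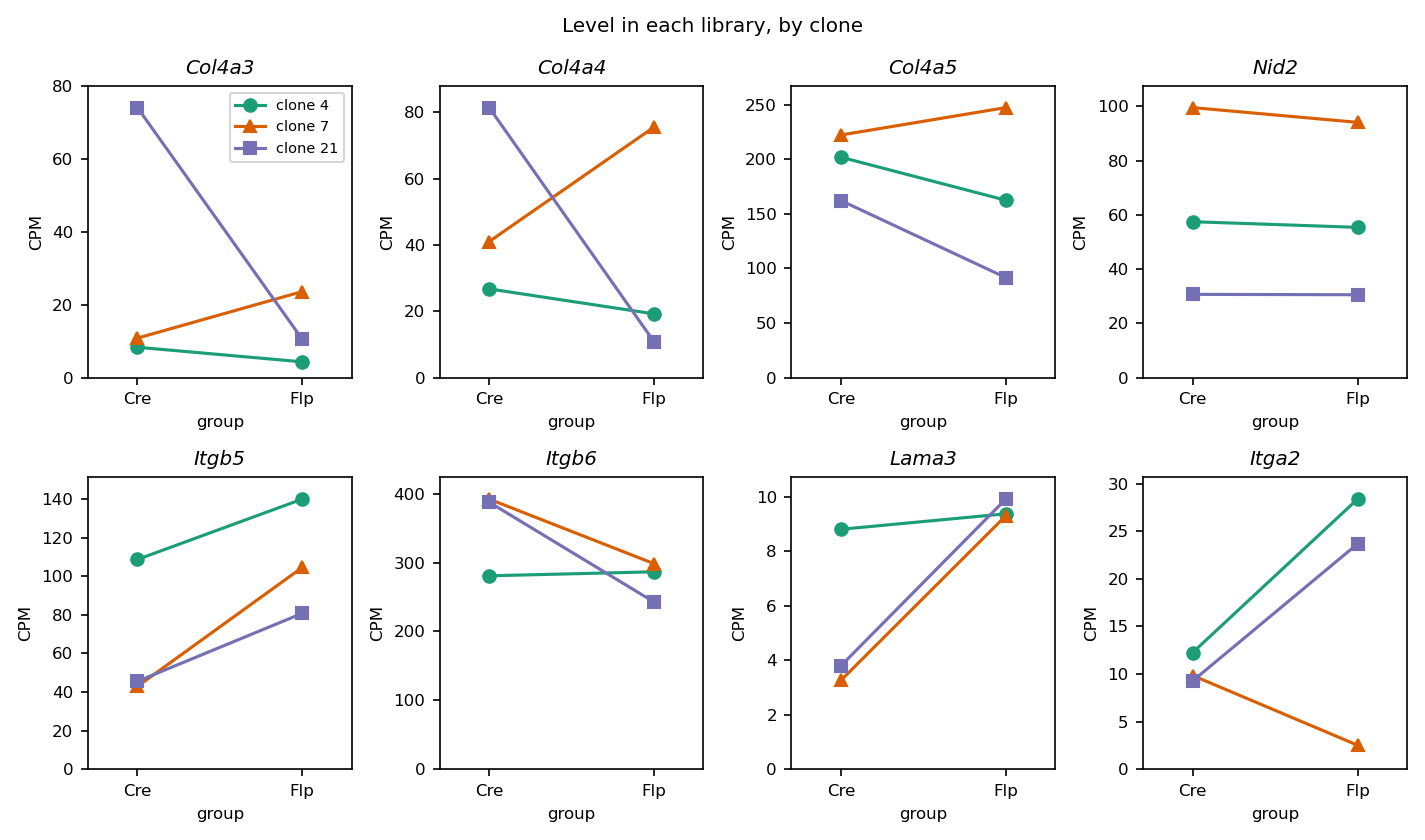
CPM of 8 genes in the Cre (left) and Flp (right) library of each clone, joined by a line, on axes that start at 0. Itgb5 and Lama3 run upward from Cre to Flp in all 3 clones, Nid2 runs flat at 3 separate levels, and Col4a3, Col4a4 and Itga2 cross.

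Of the receptors that are not integrins, dystroglycan (Dag1, ENSMUSG00000039952, chromosome 9, 108204634 to 108263958, minus strand), which binds laminin and perlecan, was at 887, 1389 and 897 CPM in Cre clones 4, 7 and 21, against 1064, 1080.1 and 672 CPM in Flp clones 4, 7 and 21. Cre was the lower in clone 4 and the higher in clones 7 and 21 (log2 fold change 0.17, SE 0.17). Ddr1 (ENSMUSG00000003534, chromosome 17, 35681567 to 35704621, minus strand), a receptor tyrosine kinase activated by collagen, was at 379, 407 and 347 CPM in Cre clones 4, 7 and 21, against 491, 389.6 and 319 CPM in Flp clones 4, 7 and 21, with overlapping groups and a log2 fold change of -0.06 (SE 0.13).

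Positions and counting bear on some of these values. Besides Lama5, the genes within 10 Mb of each of the 39 genes had median log2 ratios between -0.26 and 0.18 in every clone. Exons of 13 of the 39 genes overlap another annotated gene, over at most 8.45% of their bases, and since the strand setting of the counting is not given in the sources used here, reads of the overlapping genes cannot be told apart. The pair Col4a1 and Col4a2 overlaps at its start over 0.295% and 0.982% of exon bases.

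Further genes of matrix and adhesion, 117 in 8 lists of which 93 were tested, gave 0 calls in edgeR at an adjusted p of 0.05, with 7 higher (7.53%, beside 3.54% of all genes tested) and 5 lower (5.38%, beside 3.28%) in Cre at an unadjusted p under 0.05. In 10 of them Cre was the higher library in every clone (10.8%, beside 14.6% of all genes) and in 20 the lower (21.5%, beside 13.1%). Among 11 further integrin chains, 6 were tested and Itga9, the alpha 9 chain, was both the most abundant and the one with the smallest p, at 42.4, 17.3 and 27.9 CPM in Cre clones 4, 7 and 21, against 62.4, 33.8 and 49.7 CPM in Flp clones 4, 7 and 21. It was the lower in Cre in every clone, with overlapping groups (log2 fold change -0.78, SE 0.14, edgeR adjusted p = 0.607). Of the alternatives, blocked DESeq2 and unfiltered edgeR put it past the threshold.

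Of 14 tested collagen processing and secretion genes, 2 were higher and 5 lower in Cre in every clone, beside 14.6% and 13.1% of all genes tested. The median log2 fold change of the list was -0.08. Those lower in every clone included P4hb and P4ha1, subunits of the prolyl hydroxylase of collagen, and Plod1, a lysyl hydroxylase. They do not stand for the list, which had 1 gene higher and 0 lower in Cre at an unadjusted edgeR p under 0.05. The list summed to 3695 to 3997 CPM in Cre and 4096 to 4648 CPM in Flp. Its most abundant gene, the collagen chaperone Serpinh1, was at 1468, 1591 and 1266 CPM in Cre clones 4, 7 and 21, against 1969, 1336 and 1457 CPM in Flp clones 4, 7 and 21, lower in Cre in clones 4 and 21. Loxl2, a lysyl oxidase that crosslinks collagen IV, was higher in Cre in every clone, at 107, 195 and 201 CPM in Cre clones 4, 7 and 21, against 96.4, 111 and 57.6 CPM in Flp clones 4, 7 and 21 (log2 fold change 0.92, SE 0.31, edgeR adjusted p = 0.664). P4hb, P4ha1 and Plod1 were named after their values were seen.

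Interstitial ligands had 3 of 12 tested genes higher and 2 lower in Cre in every clone, beside 14.6% and 13.1% of all genes tested. Thbs1, thrombospondin 1, was the most abundant at 3889, 4361 and 4014 CPM in Cre clones 4, 7 and 21, against 3819, 3229 and 3911 CPM in Flp clones 4, 7 and 21. Fbn1, the fibrillin of microfibrils, was at 124, 75.6 and 109.5 CPM in Cre clones 4, 7 and 21, against 46.6, 66.4 and 55.6 CPM in Flp clones 4, 7 and 21, with all Cre libraries above all Flp libraries (log2 fold change 0.86, SE 0.24, edgeR adjusted p = 0.631). Among 9 tested proteases and inhibitors, Bmp1, the procollagen C-proteinase, was at 221, 278 and 301 CPM in Cre clones 4, 7 and 21, against 182, 197 and 184 CPM in Flp clones 4, 7 and 21, also without overlap (log2 fold change 0.49, SE 0.12, edgeR adjusted p = 0.607), and the inhibitor Timp3 at 339, 442 and 418 CPM in Cre clones 4, 7 and 21, against 295, 407 and 475 CPM in Flp clones 4, 7 and 21. Cre libraries all above Flp libraries, as for Fbn1 and Bmp1, were seen in 4.19% of all genes tested. Both genes were named for the smallest p of their lists, which favours such separation.

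Of 14 tested further basement membrane genes, 1 was higher and 3 lower in Cre in every clone, beside 14.6% and 13.1% of all genes tested. Sparc, a collagen-binding matrix protein, was at 1449.5, 1306 and 1386 CPM in Cre clones 4, 7 and 21, against 1679.8, 1663 and 1597 CPM in Flp clones 4, 7 and 21, with all Cre libraries below all Flp libraries (log2 fold change -0.26, SE 0.11), a pattern seen in 3.95% of all genes tested. Hmcn1, hemicentin 1, was at 15.5, 16.2 and 3.18 CPM in Cre clones 4, 7 and 21, against 7.15, 13.2 and 1.61 CPM in Flp clones 4, 7 and 21, higher in Cre in each clone and low in both libraries of clone 21 (log2 fold change 0.79, SE 0.25). The 22 focal adhesion and integrin activation genes were all tested, with 1 higher and 3 lower in every clone, beside the same shares of all genes. Their median log2 fold change was -0.02. Tln1, talin 1, was at 514, 613 and 534 CPM in Cre clones 4, 7 and 21, against 526, 514 and 443 CPM in Flp clones 4, 7 and 21. Fermt2, kindlin 2, was at 75.1, 136 and 149.7 CPM in Cre clones 4, 7 and 21, against 75.8, 81.3 and 79.3 CPM in Flp clones 4, 7 and 21, level in clone 4 and higher in Cre in clones 7 and 21.

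Of 12 tested genes of dystroglycan glycosylation and its complex, 0 were higher and 3 lower in Cre in every clone, beside 14.6% and 13.1% of all genes tested. A list this short says little about direction. Utrn, utrophin, was at 372, 364 and 346 CPM in Cre clones 4, 7 and 21, against 415, 381 and 368 CPM in Flp clones 4, 7 and 21. Sgce, epsilon-sarcoglycan, was at 2.41, 17.2 and 3.05 CPM in Cre clones 4, 7 and 21, against 9.89, 21.2 and 5.22 CPM in Flp clones 4, 7 and 21, with clone 7 high in both groups. Of 4 tested hemidesmosome genes 1 was lower in Cre in every clone, beside 13.1% of all genes tested. This was the tetraspanin Cd151, at 295, 283 and 295 CPM in Cre clones 4, 7 and 21, against 361, 311 and 317 CPM in Flp clones 4, 7 and 21. Dst, dystonin, was at 1406, 935 and 889 CPM in Cre clones 4, 7 and 21, against 1114, 1671 and 1167 CPM in Flp clones 4, 7 and 21, higher in Cre in clone 4 and lower in clones 7 and 21.

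All 39 genes are listed in the authors' deposited table for Cre against Flp, and the sign of its log2 fold change matched the fit here in 34 of the 34 tested. In the authors' deposited table Itgb5 was the 1 gene of the 34 past an adjusted p of 0.05, at a log2 fold change of -0.63 (SE 0.17, DESeq2 adjusted p = 0.0280), beside 1.37% of the genes with an adjusted p there. Pkd1 was past it there too, at -0.57 (SE 0.16, DESeq2 adjusted p = 0.0370). The authors' deposited table gave 0.18 for Col4a3 and 0.08 for Col4a4, where edgeR here gave 0.89 and 0.77 and DESeq2 with the clone block 0.89 and 0.78. For Lama4, with 2 reads in all, the deposited log2 fold change was -0.0040 with an SE of 0.043. Whether the deposited fold changes were shrunk toward 0 is not given in the sources used here. Their sizes may therefore not be the same measure as those of the fits here. For Itgb8 the mean of normalised counts in the authors' deposited table was 479, against 1197 from the count files scaled by median-of-ratios size factors, and for Col4a4 1134 against 1441, so these levels differ by source. That table is of the same comparison, so the matching signs are no independent check.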

How the data were processed

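RNA of 6 cultures was measured by RNA-seq. The submitters' processing notes name the builds mm10 and GRCm38 and, with no role or order, the tools STAR 2.5.2b-2, Trim Galore 0.4.3.0, DESeq2 2.11.40.1, featureCounts 1.6.0.3 and FastQC 0.67. Not given in the sources used here were the annotation release, the read layout and the strand setting. The count files the authors deposited hold raw counts of Ensembl genes. Their deposited comparison table holds, per the file headers, a mean of normalised counts (a signal over all libraries), a log2 fold change and its standard error, a Wald score, a p-value and an adjusted p-value.

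Symbols, exon lengths and coordinates came from GENCODE M21 on GRCm38, which held 49412 of 49671 identifiers. Low counts were removed with filterByExpr, and edgeR 4.0.16 (R 4.3.3) fitted its quasi-likelihood test to all 15355 genes with TMM factors, the clone as a block and Benjamini-Hochberg adjustment at 0.05. Standard errors were taken from the F statistic. A prior count of 2 was added for clone log2 ratios. Alternatives used DESeq2 1.42.0 and limma 3.58.1, other normalizations, filters and left-out clones, and, chosen after seeing the data, library depth as a covariate. The fitting code was also run on simulated counts with planted fold changes, and the outcome is not given here, so that run does not speak for the fits. Chain shares are percentages of summed CPM per kb of merged exons. Promoter windows are RefSeq's.

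The clone pairing follows the series' design. The correlation of deviations from group means was 0.20, 0.11 and 0.30 for libraries of clones 4, 7 and 21, against -0.27 to 0.02 for libraries of different clones. The 39 genes and all lists were chosen with earlier results of these data known. Values in every library were given for the 2 most abundant genes per kb and the 2 with the smallest p of each role group, for genes past the threshold under any alternative, and for genes at or under 3 counts everywhere. From each further list the most abundant gene and that with the smallest p were named. Of the comparison genes, 2 are not reported here.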

Additional observations from a re-analysis of the deposited data

How the results depend on the processing

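Where edgeR called 0 genes, DESeq2 with the clone block called 196 genes, DESeq2 without it 14, edgeR without the filter on low counts 224, and edgeR with library depth, a covariate chosen after seeing the data, 27. Of the 39 genes the calls were 1, 0, 1 and 0, and of the further matrix genes 2, 0, 4 and 0. Fitting edgeR without the replicate block left all 3 counts at 0, as did the other alternatives run: limma-voom, RLE, upper quartile and total scaling, a mean of at least 1 CPM and leaving out each clone. The cause of these differences was not tested. Of 442 alternative values of the 34 log2 fold changes, 419 kept their direction and side of the threshold, 21 changed sign and 2, both of Itgb5, passed it, and 19 genes had 1 sign throughout. The median over the 34 was -0.0080 with depth and -0.034 to 0.087 with a clone left out. With a clone left out, the log2 fold change of Col4a2 was -0.098 to 0.044, Col4a3 -0.11 to 1.93, Col4a4 -0.21 to 1.69, Lama1 -0.013 to 0.33, Lamb1 -0.041 to 0.37, Lamb2 -0.17 to 0.083, Lamc1 -0.13 to 0.00043, Agrn -0.15 to 0.055, Npnt -0.084 to 0.38, Frem2 -0.13 to 0.097, Itga2 -1.28 to 0.33, Itga3 -0.036 to 0.16, Itga6 -0.050 to 0.14, Itgav -0.27 to 0.043 and Ddr1 -0.16 to 0.092. With depth, Col4a3 was -0.019, Lamb1 -0.026, Frem2 -0.065, Itga2 0.76 and Itga6 -0.0018. The share difference was -1.92 to 0.036 percentage points for Lama5, -1.75 to 6.87 for Lamb1 and -2.53 to 0.52 for Itgav. Without the filter, 4 of the 5 genes too low to test had an edgeR adjusted p of 0.999, and Frem1, at 0 reads, had no value.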
